A study of Mus musculus with 36 samples.

Results

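A set of 10 genes of the fast skeletal muscle programme was followed through the hearts of CUG960 mice: Ryr1, Casq1, Atp2a1 and Pvalb, which handle calcium, and Tnni2, Tnnt3, Tnnc2, Mylpf, Myh4 and Actn3, which build the sarcomere. They were chosen by name as 10 of the 55291 gene symbols in the deposited tables, and 9 of the 10 passed the filter on low counts. The exception was Myh4. CUG960 mice are bitransgenic for TREDT960I, homozygous, which carries 960 interrupted CTG repeats in human DMPK sequence behind a tetracycline-responsive promoter, and for MHCrtTA, hemizygous, whose reverse transactivator is made in cardiomyocytes from the α-myosin heavy chain promoter. All 36 libraries, controls included, carried both transgenes. The +dox cohort received doxycycline (dox) chow from postnatal day 1 and expressed the expanded repeat (CUGexp) RNA. Mice of the remaining dox-fed cohorts were injected in the tail vein at 9 weeks with AAV9 for a human splicing factor under the human TNNT2 promoter, and were named after it: MBNL1, MBNL2, or MBNL1+MBNL2 for both. The +/–dox cohort went back to normal chow at 9 weeks, and the –dox cohort never received dox. Left ventricle and atria were collected at 21 weeks, with 3 libraries for each of the 12 groups. The MBNL1+MBNL2 animals were all male, whereas each of the other cohorts held both sexes. Dox feeding and CUGexp RNA cannot be told apart in these cohorts, nor can the AAV9 vector and the MBNL protein it carried.

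For nearly every step of contraction, fast-twitch fibres use isoforms other than those that predominate in the heart. Ryr1 is the release channel of the sarcoplasmic reticulum, Casq1 the calsequestrin that stores calcium inside it, Atp2a1 the SERCA1 pump that returns calcium to it, and Pvalb the parvalbumin that binds calcium in the cytosol and speeds relaxation. Tnni2, Tnnt3 and Tnnc2 are the fast troponin I, T and C of the thin filament, Mylpf is the fast regulatory myosin light chain, Myh4 the myosin heavy chain of the fastest fibres, and Actn3 the α-actinin of fast-fibre Z discs. Cardiomyocytes normally rely on Ryr2, Casq2, Atp2a2, Tnni3, Tnnt2, Tnnc1, Myl2 or Myl7, Myh6 and Actn2 instead. Several transcripts of the fast programme are classical MBNL splicing targets in skeletal muscle, among them those of Atp2a1, Ryr1 and Tnnt3. The values below are levels of whole genes, and splicing was not measured.

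Promoters of 4 members are shown because they span the range of levels in these hearts, from Casq1, the most abundant member, through Atp2a1 and Ryr1, which changed with the repeats, to Myh4, which was close to absent. Each runs 5′ to 3′ on the gene's strand from 250 bases before to 50 bases after the RefSeq start on GRCm38.p6. Capitals mark E-boxes (CANNTG), the motif bound by the myogenic factors of skeletal muscle.
Casq1 promoter, chr1:172219846-172220145, minus strand: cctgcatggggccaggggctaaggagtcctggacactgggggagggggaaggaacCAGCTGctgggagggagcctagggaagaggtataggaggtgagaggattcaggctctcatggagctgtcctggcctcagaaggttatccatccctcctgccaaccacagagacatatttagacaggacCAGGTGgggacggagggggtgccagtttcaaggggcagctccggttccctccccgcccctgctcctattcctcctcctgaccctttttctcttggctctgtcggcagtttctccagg
Atp2a1 promoter, chr7:126463024-126463323, minus strand: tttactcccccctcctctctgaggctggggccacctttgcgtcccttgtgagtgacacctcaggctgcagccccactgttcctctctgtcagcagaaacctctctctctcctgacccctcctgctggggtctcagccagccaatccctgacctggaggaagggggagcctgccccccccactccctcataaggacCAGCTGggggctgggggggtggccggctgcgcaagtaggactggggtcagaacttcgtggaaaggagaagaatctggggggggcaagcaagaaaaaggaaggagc
Ryr1 promoter, chr7:29125102-29125401, minus strand: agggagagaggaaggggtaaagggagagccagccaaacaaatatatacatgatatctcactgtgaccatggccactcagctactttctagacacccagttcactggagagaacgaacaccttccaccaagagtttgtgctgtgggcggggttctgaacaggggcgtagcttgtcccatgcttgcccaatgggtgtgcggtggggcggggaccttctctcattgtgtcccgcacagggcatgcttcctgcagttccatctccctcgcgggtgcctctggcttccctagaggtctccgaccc
Myh4 promoter, chr11:67237562-67237861, plus strand: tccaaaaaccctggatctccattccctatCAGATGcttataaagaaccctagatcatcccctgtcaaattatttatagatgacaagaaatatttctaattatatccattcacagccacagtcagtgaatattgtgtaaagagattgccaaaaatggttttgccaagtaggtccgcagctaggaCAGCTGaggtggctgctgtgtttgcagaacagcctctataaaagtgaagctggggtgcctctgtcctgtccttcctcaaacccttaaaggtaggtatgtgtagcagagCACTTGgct
The Casq1 window held 2 E-boxes, the Atp2a1 window 1, the Myh4 window 3 and the Ryr1 window 0. Sequences were at hand for 7 of the 10 members, and 6 of those 7 held an E-box on either strand, beside 72.3% of all 32851 mouse promoters searched. The M-CAT motif CATTCC was found in 1 of 7 (14.7% of all promoters), TATAAA in 1 of 7 (13.6%), MEF3 (TCAGGTT) in 0 of 7 (4.07%), a MEF2 motif in 2 of 7 (3.19%) and a CArG box in 1 of 7 (1.63%). The MEF2 matches were those of Pvalb and Myh4, and the CArG box was that of Myh4. A match describes the letters in these windows and not a site that is used.

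The members are spread over 6 chromosomes (GRCm38). Ryr1 (chr7:29003344-29125179), Atp2a1 (chr7:126445858-126463108), Mylpf (chr7:127208890-127214298), Tnni2 (chr7:142441808-142444410) and Tnnt3 (chr7:142498836-142516009) lie on chromosome 7, with Tnni2 and Tnnt3 54426 bases apart and 1 gene between them. Casq1 is at chr1:172209894-172219868, Tnnc2 at chr2:164777161-164779967, Myh4 at chr11:67238029-67260446, Pvalb at chr15:78191114-78206400 and Actn3 at chr19:4861216-4877909.

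The libraries held 55.03 to 97.09 M estimated counts on genes. One of them, ventricle MBNL1 replicate 1, had 16876 genes above 0, fewer than the 20550 to 23993 of the other 35, and several low members read 0 in it. Chamber markers matched the labels: the summed level of 5 atrial markers in ventricle, in TPM, was 0.859% of that in atria, and that of 3 ventricular markers in atria was 0.849% of that in ventricle. Markers of the skeletal muscle lineage (13 genes, among them Myod1, Myog, Pax7, Myh1 and Myh2) summed to 0.13 to 0.86 TPM in ventricle and 0.10 to 0.41 TPM in atria, with 2 of the 13 at 0 counts in every ventricular library, while 6 cardiomyocyte markers summed to 20217 to 30367 TPM. In whole tissue, fewer cells of a type and less RNA per cell cannot be told apart. The labels call the 3 libraries of a group biological replicates. The p-values rest on the spread between replicates, estimated once per gene over all 12 groups and not from the compared groups alone. Both chambers were taken from the same animals, so atrial and ventricular libraries are not independent, but the labels do not say which replicate number is which animal. By their names, replicate 3 of each cohort and every MBNL1+MBNL2 library belong to another series of libraries than the rest.

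Levels are given in TPM, the share of a library's transcripts after division by gene length, and on that scale Casq1 was the only member at the level of an abundant gene. It ranged from 20.2 to 144.8 TPM, whereas no other member exceeded 3.07 TPM in any library. Within a library, Casq1 lay above 98.2% of all genes in ventricle and above 95.2% in atria, as means over the libraries of the chamber. Mylpf, Atp2a1, Tnni2 and Tnnt3 followed, with atrial means of 0.787, 1.17, 1.31 and 1.15 TPM. Myh4 was too low to read: it was at 0 counts in 16 of 18 ventricular and 7 of 18 atrial libraries and gave 5 and 34 counts in all, and 9.68% of its 75-base words also occur in other myosin heavy chain genes, so even these counts are uncertain. In the +/–dox cohort Myh4 was at 0 in every library of both chambers, where a count of 0 allows up to 3 counts in a library. Low counts also limited Tnnc2 in atria (0 to 7 counts a library, 0 in 10 of 18), Actn3 in ventricle (0 to 11), Pvalb in both chambers (0 to 28 in ventricle, 0 to 18 in atria) and Tnni2 and Tnnt3 in ventricle (0 to 16 and 0 to 18). These intervals of counts cover counting error only.

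**Figure D1:**
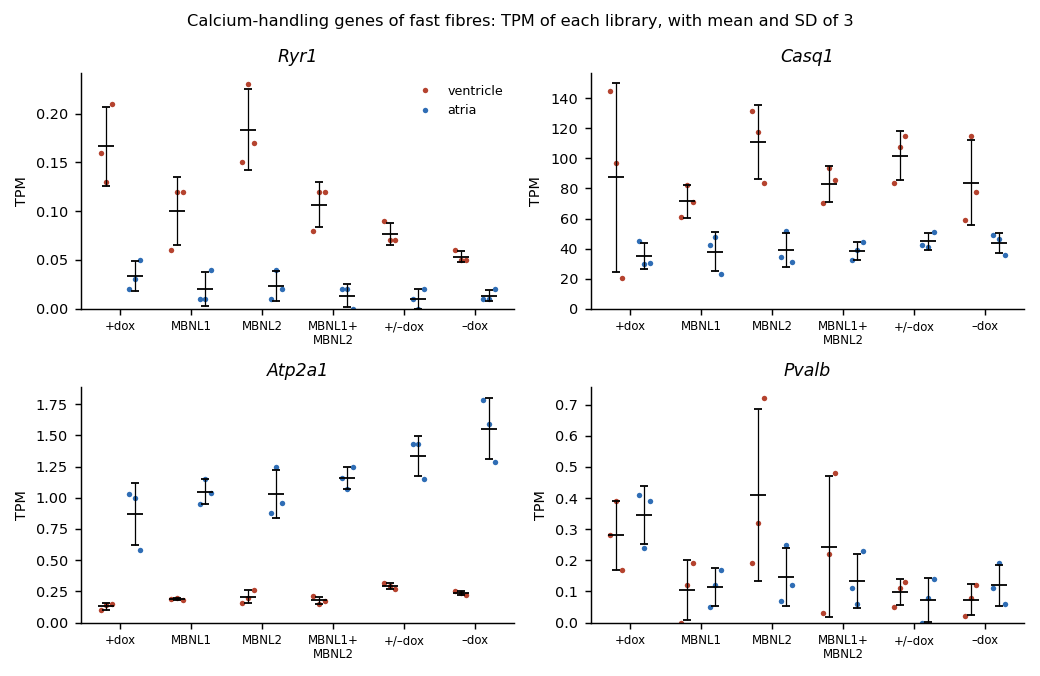
TPM (y axis, from 0) of Ryr1, Casq1, Atp2a1 and Pvalb in every library of the 6 cohorts (x axis), red for ventricle and blue for atria, with bars at the mean ± SD of 3 libraries. Ryr1 and Casq1 sit higher in ventricle, Atp2a1 higher in atria, and the ventricle +dox libraries of Casq1 range from 20.2 to 144.8 TPM.

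The first comparison asked what differed when CUGexp RNA was never induced, –dox against +dox. A gene was called when its adjusted p in edgeR's quasi-likelihood test (Benjamini-Hochberg over 19231 genes) was under 0.05 and its fold at least 1.5. In ventricle 2 of 9 members were called, Atp2a1 higher and Ryr1 lower without dox, beside 7.6% of all genes tested. In atria 3 of 9 were called, Atp2a1, Tnni2 and Tnnt3, all higher without dox, beside 5.23% of all genes called and 2.83% called higher. The median log2 fold change of the members was -0.04 in ventricle (0.01 over all genes) and 0.48 in atria (0.03 over all genes).

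Ryr1, the skeletal release channel, was the member that fell in ventricle. Its estimated counts were 188, 172 and 169 in the +dox ventricles and 48, 47 and 33 in the –dox ventricles, with 80, 50 and 52 in the +/–dox ventricles. The 3 +dox libraries stood above all 6 libraries without CUGexp RNA. In CPM, counts scaled to the size of the library, the ventricular means were 2.22 ± 0.34 in +dox, 1.00 ± 0.19 in +/–dox and 0.713 ± 0.096 in –dox (SD, n = 3). Ryr1 was lower in –dox by a log2 fold change of -1.64 (SE 0.48, adjusted p = 0.0135, edgeR), and the call was lost without –dox replicate 3 (adjusted p = 0.0559). In +/–dox the log2 fold change was -1.15 (SE 0.47) and the adjusted p 0.0787, although the groups did not overlap. In atria Ryr1 was read from 3 to 33 counts a library, and its log2 fold changes of -1.21 (SE 0.56) in –dox and -1.36 (SE 0.57) in +/–dox did not pass (adjusted p = 0.143 and 0.124). Its cardiac counterpart Ryr2 moved the other way and was called in all 4 of these comparisons, with log2 fold changes of 0.96 and 1.05 in ventricle and 0.69 and 0.72 in atria for –dox and +/–dox.

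Atp2a1, the fast SERCA pump, was higher in both chambers once CUGexp RNA was absent. In ventricle it measured 0.10, 0.14 and 0.15 TPM in +dox, 0.32, 0.29 and 0.27 in +/–dox and 0.25, 0.24 and 0.22 in –dox. No +dox library reached the lowest library of either other cohort. The log2 fold change was 1.21 in +/–dox (SE 0.26, adjusted p = 0.00109), which held with any of the 6 libraries left out, and 0.94 in –dox (SE 0.26, adjusted p = 0.0104), which was lost without +dox replicate 1 (adjusted p = 0.0689). In atria it measured 1.03, 1.00 and 0.58 TPM in +dox, 1.43, 1.43 and 1.15 in +/–dox and 1.78, 1.59 and 1.29 in –dox. The +dox atria again lay below both other cohorts, which overlapped each other, and the lowest +dox value belonged to replicate 3. The atrial log2 fold change was 0.86 in –dox (SE 0.23, adjusted p = 0.0101) and 0.66 in +/–dox (SE 0.23, adjusted p = 0.0594), and the –dox call was lost without +dox replicate 3 (adjusted p = 0.0831) or –dox replicate 1 (adjusted p = 0.0648). Atp2a2, the cardiac pump, was at 3342 to 7383 TPM and changed by less than the 1.5-fold threshold, with log2 fold changes of 0.29 and 0.36 in ventricle and 0.31 and 0.41 in atria (adjusted p = 0.0138, 0.00247, 0.0106 and 0.00116). Rabep2, which overlaps Atp2a1 on the opposite strand by 3388 bases, differed by -0.12 in the ventricle of –dox mice (adjusted p = 0.526).

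Casq1, the skeletal calsequestrin, could not be read for a direction in ventricle. The +dox libraries gave 144.83, 97.06 and 20.17 TPM, a wider spread than the 59.17, 115.22 and 77.44 of –dox and the 83.54, 107.29 and 114.87 of +/–dox. All of these groups overlapped. The log2 fold change was -0.04 in –dox (SE 0.42, adjusted p = 0.964) and 0.20 in +/–dox (SE 0.42, adjusted p = 0.794). It turned with the library left out: for –dox it was -0.52 without +dox replicate 3 (adjusted p = 0.291) and 0.51 without +dox replicate 1 (adjusted p = 0.513). In atria Casq1 ran from 29.8 to 45.3 TPM in +dox and from 35.95 to 51.08 TPM in –dox and +/–dox together, with a log2 fold change of 0.34 in –dox (SE 0.43, adjusted p = 0.654). That SE draws on the spread of all 12 groups, the wide ventricular +dox group included. Casq2, which stores calcium in cardiomyocytes, was lower in atria by log2 fold changes of -0.62 in both cohorts, and these were called. In ventricle its log2 fold changes were -0.57 and -0.58 (adjusted p = 0.00199 and 0.00156), just under the fold threshold.

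Pvalb, the cytosolic calcium buffer, gave fewer counts in the cohorts without CUGexp RNA, but the differences did not pass the test. Ventricle +dox gave 16, 24 and 7 counts, +/–dox 2, 4 and 5, and –dox 1, 4 and 4. In atria the counts were 18, 10 and 12 in +dox, 0, 3 and 5 in +/–dox, and 4, 7 and 2 in –dox. In TPM the +dox libraries stood above both other cohorts in each chamber, and those cohorts overlapped each other. The log2 fold changes ran from -1.47 to -2.04 with adjusted p from 0.14 to 0.265.

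**Figure D2:**
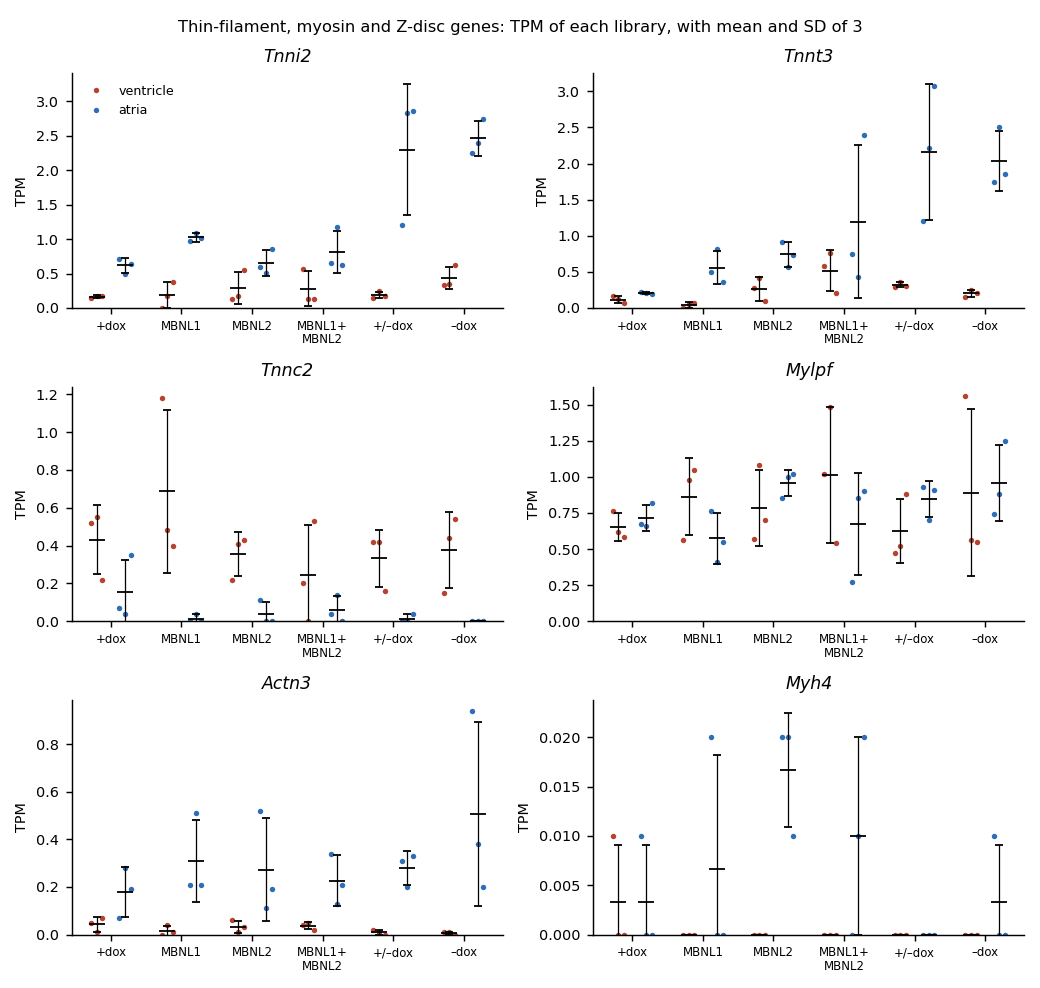
TPM (y axis, from 0) of Tnni2, Tnnt3, Tnnc2, Mylpf, Actn3 and Myh4 in every library of the 6 cohorts (x axis), red for ventricle and blue for atria, with bars at the mean ± SD of 3 libraries. Tnni2 and Tnnt3 are highest in the +/–dox and –dox atria, and Myh4 stays at or below 0.02 TPM.

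Tnnt3 and Tnni2, fast troponins T and I, showed the largest rises among the members, in atria. Tnnt3 measured 0.22, 0.21 and 0.19 TPM in the +dox atria, 1.20, 2.21 and 3.07 in +/–dox and 1.74, 2.51 and 1.86 in –dox. These were 11, 10 and 4 counts in +dox, 37, 92 and 109 in +/–dox and 67, 100 and 71 in –dox. The groups were far apart, with the lowest +/–dox library well above the highest +dox library. The log2 fold change was 3.39 in –dox (SE 0.59, adjusted p = 0.000137) and 3.49 in +/–dox (SE 0.59, adjusted p = 0.000126), and both calls held with any of the 6 libraries left out. In ventricle Tnnt3 was read from 3 to 15 counts in these cohorts, and its log2 fold changes of 0.99 (SE 0.64, adjusted p = 0.301) and 1.38 (SE 0.63, adjusted p = 0.121) did not pass.

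Prr33, a transcript annotated on the opposite strand across 7936 bases of Tnnt3, was higher in the same cohorts. Its log2 fold changes were 0.79 in –dox and 0.83 in +/–dox atria (adjusted p = 0.00302 and 0.00268), and 0.62 and 0.80 in ventricle (adjusted p = 0.0170 and 0.00225). Over 18 libraries it followed Tnnt3 with r = 0.59 in atria and 0.15 in ventricle. The library kit keeps strand, but the strand setting used for counting is not given in the sources used here, and the part of Prr33 reads in the Tnnt3 values was not tested.

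Tnni2 measured 0.71, 0.50 and 0.64 TPM in the +dox atria, 1.20, 2.83 and 2.86 in +/–dox and 2.25, 2.39 and 2.75 in –dox. All 6 libraries without CUGexp RNA were above the 3 +dox libraries, and +/–dox replicate 1 was the lowest of the 6. The log2 fold change was 2.02 in –dox (SE 0.57, adjusted p = 0.0141) and 1.96 in +/–dox (SE 0.57, adjusted p = 0.0208). The –dox call was lost without +dox replicate 2 (adjusted p = 0.0676). The +/–dox call was kept in 1 of 6 fits with a library left out, that without +/–dox replicate 1, and the other 5 gave adjusted p of 0.0550 to 0.0950. In ventricle Tnni2 was at 0.34, 0.35 and 0.62 TPM in –dox against 0.14, 0.17 and 0.18 in +dox, with no overlap, a log2 fold change of 1.47 (SE 0.65) and an adjusted p of 0.108. The +/–dox ventricles overlapped +dox (log2 fold change 0.26, SE 0.70, adjusted p = 0.843, edgeR). They lay below –dox without overlap, a difference that did not pass (1.21 for –dox over +/–dox, SE 0.66, adjusted p = 0.659).

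Tnnc2, fast troponin C, did not rise with the other fast troponins. It gave 2, 1 and 7 counts in the +dox atria, 0, 0 and 1 in +/–dox and 0, 0 and 0 in –dox, and no fold is given against so few counts (adjusted p = 0.0645 in –dox). In ventricle the 3 cohorts overlapped, with 19, 21 and 6 counts in +dox and 4, 13 and 12 in –dox (log2 fold change -0.17, SE 0.87, adjusted p = 0.92). Ube2c, a cell-cycle gene that overlaps Tnnc2 by 1662 bases on the opposite strand, fell by 2.58 on the log2 scale in the same ventricles (adjusted p = 0.00205). Its part in the Tnnc2 counts was not tested.

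Mylpf, the fast regulatory light chain, was low, at 11 to 38 counts a library in ventricle and 7 to 27 in atria, and no difference between the cohorts was resolved. It ran from 0.47 to 1.56 TPM in ventricle and from 0.27 to 1.25 TPM in atria, with overlap between all 3 cohorts in both chambers. The log2 fold changes for –dox were 0.43 in ventricle (SE 0.46, adjusted p = 0.566) and 0.48 in atria (SE 0.47, adjusted p = 0.544). Actn3, the fast α-actinin, gave 11, 3 and 10 counts in the +dox ventricles, 4, 1 and 0 in +/–dox and 1, 1 and 0 in –dox. Its atrial counts of 12, 43 and 21 in +dox and 130, 51 and 25 in –dox overlapped. The fitted log2 fold change for –dox was -3.02 in ventricle (SE 1.17, adjusted p = 0.0644) and 1.56 in atria (SE 0.70, adjusted p = 0.133). Neither passed, and the ventricular value rests on 2 counts in –dox.

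Summed levels of other cell markers also differed in these comparisons. In atria the 5 atrial markers summed to 40261 to 43329 TPM in +dox, 55807 to 60714 in +/–dox and 54361 to 57755 in –dox. Of the 5, 0 were called there (median log2 fold change 0.34 in +/–dox and 0.23 in –dox). In ventricle they summed to 124 to 471 TPM in +dox and 92.2 to 1007 in –dox. The 3 ventricular markers summed in atria to 65.4 to 104 TPM in +dox, 108 to 394 in +/–dox and 41.1 to 805 in –dox. All 3 had positive log2 fold changes in both cohorts, and 0 were called. Markers of nerve and Schwann cells (5 genes) summed to 6.11 to 6.77 TPM in the +dox atria, 8.80 to 10.2 in +/–dox and 9.06 to 10.9 in –dox, and to 1.95 to 2.85, 3.94 to 4.44 and 3.05 to 3.94 TPM in ventricle. Of the 5 nerve and Schwann cell markers, 1 was called higher in the –dox atria (Prph; 5.23% of all genes called). In ventricle 1 was called in –dox (Dbh; 7.6%) and 2 in +/–dox (Dbh and Sox10; 6.6%). Markers of brown fat (3 genes) summed to 10.5 to 16.0 TPM in the +dox ventricles, 17.0 to 21.1 in +/–dox and 19.2 to 22.7 in –dox, with Cidea called in –dox (log2 fold change 0.59). Those of smooth muscle (5 genes) summed to 534 to 577 TPM in the +dox ventricles and 674 to 856 in –dox, but 2 of the 5 had a positive log2 fold change there and their median was -0.12. Endothelium markers (2 genes) summed to 119.5 to 130.9 TPM in the +dox atria, 134.6 to 158.8 in +/–dox and 148.5 to 185.5 in –dox. In ventricle they summed to 84.3 to 93.3, 109.5 to 120.9 and 103.8 to 134.1 TPM. Fibroblast markers (3 genes) summed to 902 to 1113 TPM in the +dox atria and 1217 to 1261 in –dox, and these cohorts overlapped in ventricle. The skeletal lineage markers did not rise with Tnni2 and Tnnt3: their sum was 0.24 to 0.31 TPM in the +dox atria, 0.22 to 0.41 in +/–dox and 0.19 to 0.39 in –dox. The part of these cell types in the members' changes was not tested.

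In the +/–dox cohort the question was whether values set during repeat expression returned once dox was withdrawn. The calls were Atp2a1 in ventricle (1 of 9 members, beside 6.6% of all genes) and Tnni2 and Tnnt3 in atria (2 of 9, beside 3.99%). Set directly against each other, –dox and +/–dox differed in 0 of 9 members in ventricle (0.0312% of all genes called) and 0 of 9 in atria (0.0104%) by edgeR, with 0 members under an unadjusted p of 0.05 in either chamber and 0 called by DESeq2. The –dox and +/–dox comparisons share the +dox libraries.

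**Figure D3:**
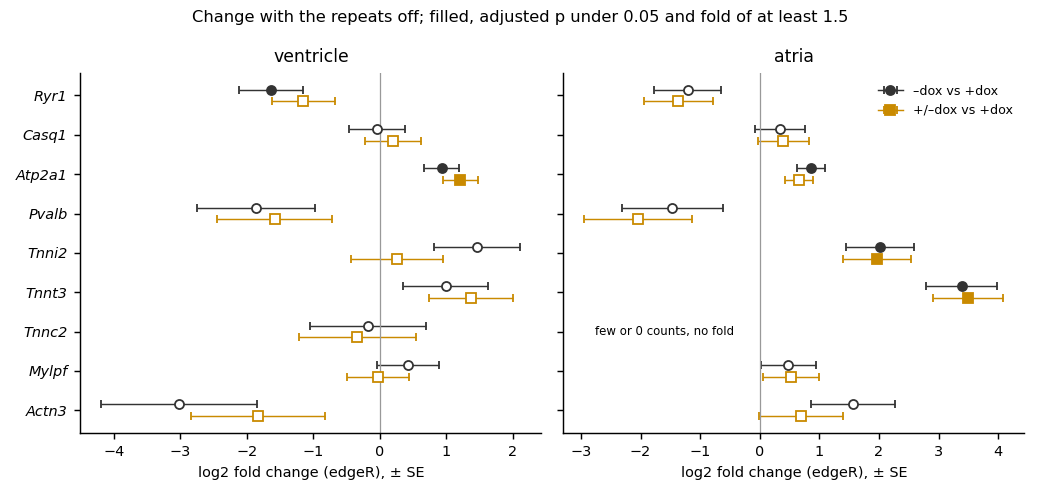
Log2 fold change ± SE from edgeR (x axis) of 9 members (y axis) for –dox (black circles) and +/–dox (orange squares) against +dox in ventricle (left) and atria (right), filled where called. Atp2a1 is called on both sides, Ryr1 in ventricle, and Tnni2 and Tnnt3 in atria, and no fold is drawn for Tnnc2 in atria.

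The changes in the 2 chambers were compared directly by the interaction of cohort and chamber. No member was called for –dox (0 of 9, beside 0.764% of all genes) or for +/–dox (0 of 9, beside 0.489%), and 3 and 2 members had an unadjusted p under 0.05. The largest differences for –dox, atria minus ventricle, were 4.58 for Actn3 (SE 1.36, adjusted p = 0.103), -4.47 for Tnnc2 (SE 1.92, adjusted p = 0.363), whose –dox atria were at 0 counts so that the value is no measured fold, and 2.40 for Tnnt3 (SE 0.87, adjusted p = 0.228). The Actn3 difference was called by DESeq2 (4.77, adjusted p = 0.0465), and also by edgeR with cohort and replicate number together as a block, which pairs same-numbered libraries of the chambers (4.65, adjusted p = 0.0417), an alternative chosen after seeing the data that called 1 of 9 members for –dox and 0 of 9 for +/–dox. The ventricular Actn3 counts beneath it were 0 to 11. By DESeq2 0 members were called for +/–dox. The atrial rises of Tnnt3 and Tnni2 were therefore not shown to be larger than their ventricular differences.

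The MBNL cohorts asked whether AAV9 MBNL1, MBNL2 or both moved these genes while CUGexp RNA stayed on. Against +dox, 0 of 9 members were called in ventricle for MBNL1 (2.66% of all genes), MBNL2 (1.52%) or MBNL1+MBNL2 (2.65%), with 1, 0 and 1 members under an unadjusted p of 0.05 and 0 called by DESeq2. In atria 0 of 9 were called for MBNL1 (0.13%) and MBNL2 (0.0052%), with 2 and 1 under an unadjusted p of 0.05 and 0 called by DESeq2, and 1 of 9, Tnnt3, for MBNL1+MBNL2 (0.26%).

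Atrial Tnnt3 measured 0.50, 0.81 and 0.36 TPM in MBNL1, 0.92, 0.57 and 0.74 in MBNL2 and 0.75, 0.43 and 2.40 in MBNL1+MBNL2. All 9 libraries lay above the 0.19 to 0.22 TPM of +dox, and 8 of the 9 lay below the lowest +/–dox library at 1.20. Against +dox the log2 fold change was 2.41 for MBNL1+MBNL2 (SE 0.59, adjusted p = 0.0449), 1.91 for MBNL2 (SE 0.59, adjusted p = 0.718) and 1.54 for MBNL1 (SE 0.59, adjusted p = 0.41). The MBNL1+MBNL2 call was kept in 1 of 6 fits with a library left out, and without its replicate 3 the log2 fold change was 1.51 (adjusted p = 0.563). In the same libraries the 3 brown fat markers summed to 16.5 to 43.3 TPM, against 10.4 to 12.9 in +dox, all 3 had positive log2 fold changes and Cidea was called (0.82, adjusted p = 0.0455). The part of brown fat in the Tnnt3 value was not tested. Against +/–dox, Tnnt3 was lower in MBNL1 by -1.96 (SE 0.54, adjusted p = 0.0297; 1.21% of all genes called), a call kept in 2 of 6 such fits and lost in the others at adjusted p of 0.0943 to 0.137. For MBNL2 the difference was -1.58 (SE 0.53, adjusted p = 0.0502) and for MBNL1+MBNL2 -1.09 (SE 0.52, adjusted p = 0.236).

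Atrial Tnni2 measured 0.97, 1.09 and 1.01 TPM in MBNL1, 0.59, 0.51 and 0.86 in MBNL2 and 0.66, 1.17 and 0.62 in MBNL1+MBNL2. All 9 lay below the lowest +/–dox library. Against +dox the MBNL1 libraries did not overlap (log2 fold change 0.68, SE 0.57, adjusted p = 0.89). Against +/–dox, Tnni2 was lower in MBNL2 by -1.86 (SE 0.57, adjusted p = 0.0321; 3.24% of all genes called), and this call was kept in 2 of 6 fits with a library left out (adjusted p of 0.0999 to 0.124 in the others). The same difference was -1.28 for MBNL1 (SE 0.56, adjusted p = 0.216) and -1.59 for MBNL1+MBNL2 (SE 0.57, adjusted p = 0.0853; 1.71% of all genes called and 0 of 9 members).

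By mean CPM, ventricular Atp2a1 lay between +dox and both cohorts without CUGexp RNA in all 3 MBNL groups. It measured 0.19, 0.20 and 0.18 TPM in MBNL1, 0.16, 0.20 and 0.26 in MBNL2 and 0.21, 0.15 and 0.17 in MBNL1+MBNL2. Every one of these values was below the lowest +/–dox library at 0.27, and 8 of 9 were above the highest +dox library at 0.15. Against –dox the libraries were not all lower, as the MBNL2 value of 0.26 TPM lay above every –dox library. The log2 fold changes against +dox were 0.54, 0.53 and 0.40 (adjusted p = 0.203, 0.235 and 0.40), and against +/–dox -0.67, -0.68 and -0.81 (adjusted p = 0.166, 0.125 and 0.109). None was called in either direction. In atria the 9 values ran from 0.88 to 1.25 TPM.

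Ventricular Ryr1 gave 62, 106 and 106 counts in MBNL1, 131, 196 and 135 in MBNL2 and 59, 79 and 105 in MBNL1+MBNL2. The mean of 2.27 ± 0.57 CPM in MBNL2 was next to the 2.22 ± 0.34 of +dox, with 1.36 ± 0.41 in MBNL1 and 1.35 ± 0.30 in MBNL1+MBNL2 (SD, n = 3). Log2 fold changes against +dox were 0.03 for MBNL2 (SE 0.45, adjusted p = 0.982), -0.71 for MBNL1 (SE 0.46, adjusted p = 0.354) and -0.72 for MBNL1+MBNL2 (SE 0.46, adjusted p = 0.38). The order of the 6 ventricular means was MBNL2, +dox, MBNL1, MBNL1+MBNL2, +/–dox and –dox, and neighbouring cohorts overlapped in CPM except at the steps from +dox to MBNL1 and from +/–dox to –dox, neither of which passed the test.

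Tnnt3 in ventricle was the remaining member with a call in these cohorts. It gave 0, 2 and 3 counts in MBNL1 and 10, 15 and 11 in +/–dox, a log2 fold change of -2.95 (SE 0.76, adjusted p = 0.0306; 1 of 9 members, beside 0.868% of all genes). The 0 came from the MBNL1 library with few genes above 0, and without it the call was lost, as it was in 5 of 6 fits with a library left out (adjusted p of 0.0563 to 0.155). For MBNL1+MBNL2 the ventricular Tnnt3 counts were 15, 17 and 8 against 9, 7 and 3 in +dox (log2 fold change 1.54, SE 0.63, adjusted p = 0.132). In ventricle MBNL2 and MBNL1+MBNL2 differed from +/–dox in 0 of 9 members (1.57% and 0.53% of all genes), with 3 and 1 members under an unadjusted p of 0.05 and 0 called by DESeq2.

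Atria and ventricle were compared over all 6 cohorts. Of the 9 members tested 7 were called, 4 higher in atria and 3 lower, beside 31.7% of all genes (17.3% higher and 14.5% lower). Actn3, Atp2a1, Tnnt3 and Tnni2 were higher in atria, and Tnnc2, Ryr1 and Casq1 higher in ventricle. All 7 calls held with any of the 36 libraries left out. The 7 were also called with cohort and replicate number together as a block, which pairs same-numbered libraries of the chambers. Of the skeletal lineage markers 5 were tested and 4 called, Chrna1, Chrng and Myod1 lower in atria and Myh2 higher, at sums under 1 TPM in both chambers. The nerve and Schwann cell markers (5 genes) summed to 1.95 to 4.44 TPM in ventricle and 4.93 to 10.95 in atria, without overlap. Of those described here, Sox10 was called higher in atria. Their part in the chamber differences was not tested.

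In the rounded TPM values, Atp2a1 was the only member whose 18 atrial libraries, 0.58 to 1.78 TPM, did not overlap its 18 ventricular ones, 0.10 to 0.32 TPM. Its means were 1.17 ± 0.28 and 0.206 ± 0.058 TPM (SD, n = 18) and its log2 fold change 2.02 (SE 0.10, adjusted p = 7.66e-18). Rabep2, which overlaps Atp2a1 on the opposite strand, was also called higher in atria, by 0.64 (adjusted p = 9.08e-14, edgeR). The part of Rabep2 reads in the Atp2a1 values was not tested. Actn3 differed by 3.36 (SE 0.36, adjusted p = 6.84e-10), from 0.024 TPM in ventricle to 0.296 TPM in atria. The troponins Tnnt3 and Tnni2 differed by 1.84 (SE 0.25, adjusted p = 8.32e-08) and 1.73 (SE 0.25, adjusted p = 3.44e-07). Prr33, which overlaps Tnnt3, differed by -0.13 and was not called (adjusted p = 0.123, edgeR).

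Ryr1 was lower in atria by a log2 fold change of -2.95 (SE 0.22, adjusted p = 9.98e-14), with 3 to 33 counts a library there against 33 to 196 in ventricle. In TPM, rounded to 2 decimals, its chambers met only at 0.05, the highest atrial and the lowest ventricular value. Tnnc2 was lower by -4.14 (SE 0.51, adjusted p = 1.70e-08), from 208 counts over the 18 ventricular libraries to 19 over the 18 atrial ones. Ube2c, which overlaps Tnnc2 on the opposite strand, was also called lower in atria, by -1.19 (adjusted p = 6.38e-05, edgeR). The part of Ube2c reads in this difference was not tested. Casq1 was lower by -1.66 (SE 0.18, adjusted p = 6.09e-09), with means of 89.8 ± 29.6 TPM in ventricle and 39.8 ± 8.3 TPM in atria. The chambers' Casq1 libraries overlapped through ventricle +dox replicate 3 at 20.2 TPM.

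Mylpf was lower in atria by -0.56 (SE 0.19, adjusted p = 0.0102), short of the fold threshold, and its TPM means were nearly equal, the atrial one 97.9% of the ventricular one. The scales differ here: over 12881 genes with a mean of at least 1 TPM the median atria-to-ventricle log2 ratio was 0.52 in TPM and 0.02 in edgeR. Pvalb differed by -0.74 (SE 0.37, adjusted p = 0.0729). The lower chamber's mean TPM was 16.5% of the higher one's for Ryr1, 17.6% for Atp2a1, 19.5% for Tnni2, 21.2% for Tnnt3, 11.4% for Tnnc2 and 8.26% for Actn3, against under 1% for the chamber markers.

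**Figure D4:**
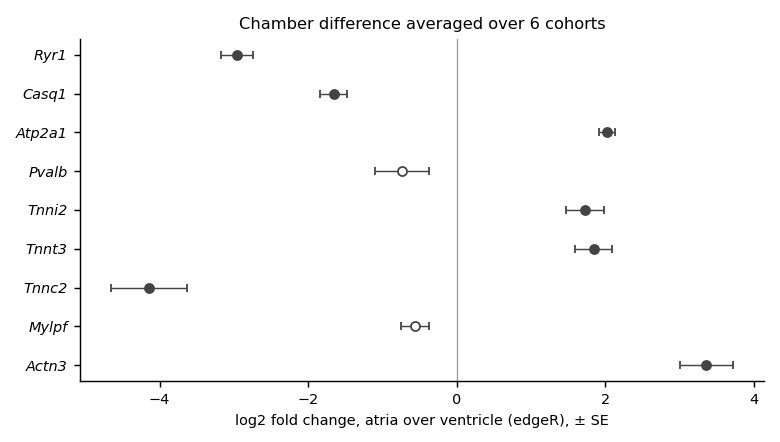
Log2 fold change of atria over ventricle ± SE from edgeR (x axis), averaged over the 6 cohorts, for 9 members (y axis), filled where called. Actn3, Atp2a1, Tnni2 and Tnnt3 lie to the right of 0 and Tnnc2, Ryr1 and Casq1 to the left.

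The share of a family's TPM carried by the skeletal member placed these levels beside the cardiac isoforms. Casq1 carried 3.58 to 21.5% of Casq1 plus Casq2 in ventricle (median 15.1%) and 4.18 to 10.2% in atria (median 6.62%). In every other family the skeletal member was a trace. Ryr1 carried 0.0326 to 0.264% of Ryr1 plus Ryr2 in ventricle and at most 0.0404% in atria. Atp2a1 carried 0.00296 to 0.00676% of SERCA1 plus SERCA2 in ventricle and 0.0109 to 0.0258% in atria, with no overlap between the chambers. Tnni2 and Tnnt3 reached at most 0.0501 and 0.0459% of their troponin families in atria, Tnnc2 at most 0.0407% in ventricle, Actn3 at most 0.107% in atria, Mylpf 0.0111% and Myh4 0.000262%. In atria the mean share of Casq1 was 4.75 ± 0.72% in +dox, 9.25 ± 0.85% in +/–dox and 8.90 ± 0.49% in –dox (SD, n = 3), a share that also carries the lower Casq2.

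**Figure D5:**
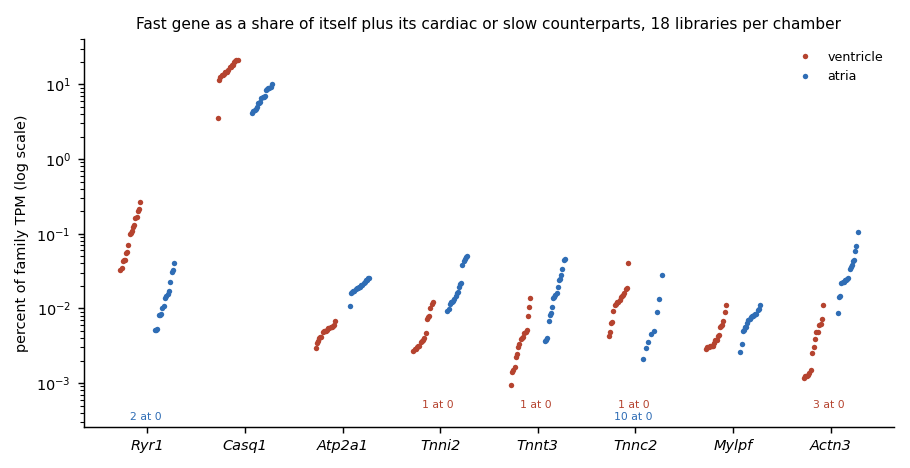
Percent of family TPM carried by the skeletal gene (y axis, log scale) in 18 ventricular (red) and 18 atrial (blue) libraries, each sorted by value, for 8 members (x axis). Libraries at 0 are counted at the bottom. Casq1 lies between 3.58 and 21.5%, and the other members lie below 0.3%.

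Across the 18 libraries of a chamber, which share cohorts and depth, some members moved together. Tnni2 and Tnnt3, neighbours on chromosome 7, had r = 0.71 in atria and 0.38 in ventricle. Atp2a1 followed Tnnt3 with r = 0.73 in atria and 0.18 in ventricle, and Tnni2 with 0.60 and 0.31. Atp2a1 and Ryr1 ran in opposite directions in both chambers (r = -0.62 in ventricle and -0.52 in atria). Pvalb followed Ryr1 with r = 0.66 in ventricle and 0.29 in atria. Among all genes tested, the pattern most like Atp2a1 by mean r over both chambers was that of Slc25a11 (0.874), a mitochondrial carrier, followed by Idh3b (0.871), a subunit of the citric acid cycle's isocitrate dehydrogenase. The closest to Casq1 were Park7 (0.750) and Masp1 (0.744), to Tnni2 Slc9a3 (0.829) and Rab3b (0.823), to Tnnt3 B930095G15Rik (0.808) and Ttll11 (0.761), and to Ryr1 Gm45716 (0.733) and Ndn (0.719). For Pvalb they were Mpp7 (0.712) and Plppr4 (0.705), and for Actn3, Tnnc2 and Mylpf the closest gene reached 0.615, 0.620 and 0.603. These are descriptions over 18 libraries per chamber.

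Other genes of the fast and developmental sarcomere were read from a list of 18, of which 15 were tested. In ventricle 5 were called for –dox, 4 higher and 1 lower, beside 7.6% of all genes. The list median was 0.37 (0.01 over all genes). Mybpc2, the fast myosin binding protein C, rose by 2.78, Myot, a Z-disc protein, by 1.19, Myl1, the fast essential light chain, by 1.03, and Klhl40, a stabiliser of thin-filament proteins, by 0.99 on the log2 scale, while Myh8, the perinatal heavy chain, fell by 2.38. In atria 4 were called, beside 5.23% of all genes, Mybpc2 (2.75), Myot (1.04) and Klhl40 (0.71) higher and Myh8 (-1.90) lower. The list median there was 0.47 (0.03 over all genes). For +/–dox the counts were 5 of 15 in ventricle (6.6% of all genes) and 2 of 15 in atria (3.99%). Mybpc2 measured 7.26, 5.74 and 1.80 TPM in the +dox ventricles and 20.94, 41.51 and 39.49 in –dox, so that it was more abundant there than any member but Casq1. The smallest +dox value came from the same library, replicate 3, in which Casq1 was at 20.2 TPM. For the MBNL cohorts 3, 1 and 1 of 15 were called in ventricle and 1, 0 and 1 in atria for MBNL1, MBNL2 and MBNL1+MBNL2. The shares of all genes were 2.66%, 1.52% and 2.65% in ventricle and 0.13%, 0.0052% and 0.26% in atria.

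Genes linked to skeletal excitation-contraction coupling, not all of them direct partners of Ryr1 or Casq1, formed a list of 20, 17 of them tested. In the –dox ventricles 5 were higher and 0 lower: Clcn1, the skeletal chloride channel (log2 fold change 3.73), Scn4a, the skeletal sodium channel (0.85), Chrnb1, an acetylcholine receptor subunit (0.78), Jph1, which joins the reticulum to the T tubule (0.65), and Sypl2, a triad membrane protein (0.65). In the –dox atria 3 were higher, Clcn1 (2.55), Sypl2 (0.79) and Pln, the inhibitor of the SERCA pump (0.93). Over all genes 7.6% were called in ventricle and 5.23% in atria. The list medians were 0.05 and 0.33 (0.01 and 0.03 over all genes). For +/–dox 3 and 2 were higher, beside 6.6% and 3.99% of all genes called. Clcn1 measured 0.09, 0.06 and 0.06 TPM in the +dox ventricles and 0.85, 0.82 and 1.24 in –dox, without overlap. In the –dox ventricles, where Ryr1 was lower, 0 of these 17 genes was called lower.

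Of the 13 cardiac or slow counterparts, 1 was called for –dox in ventricle (7.6% of all genes) and 3 in atria (5.23%). The ventricular count was near the share over all genes. The genes called were Ryr2 in both, and Tnnc1, cardiac troponin C (log2 fold change 0.64), and Casq2 (-0.62) in atria. For +/–dox they were Ryr2 and Tnnt2, cardiac troponin T (0.64), in ventricle (6.6% of all genes) and Ryr2 and Casq2 in atria (3.99%). Against +dox the one call in the MBNL cohorts was Tnnt1, the slow troponin T, in the MBNL1+MBNL2 ventricles (-0.59), beside 2.65% of all genes. Against +/–dox 1, 2 and 1 of 13 were called in ventricle and 1, 2 and 3 in atria for MBNL1, MBNL2 and MBNL1+MBNL2. The shares of all genes there were 0.868%, 1.57% and 0.53% in ventricle and 1.21%, 3.24% and 1.71% in atria. Between the chambers 5 of 13 were called, beside the 7 of 9 members and 31.7% of all genes.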

How the data were processed

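RNA from left ventricle and atria was sequenced from stranded mRNA libraries (paired reads of 150 bases). Per the study's methods and the submitters' processing notes, the authors aligned reads with STAR 2.7.10b to mm10 (GENCODE annotation) and quantified genes with RSEM 1.3.1. The deposited expected counts and the deposited TPM values (rounded by the authors to 2 decimals) were used as given. Whether RSEM counted by strand is not given in the sources used here.

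Expected counts were rounded to whole numbers. Genes passing filterByExpr (19231) were fitted with edgeR 4.0.16 (R 4.3.3, limma 3.58.1) by robust quasi-likelihood over all 36 libraries, with 12 group means and TMM scaling, so that all groups shared 1 estimate of spread. Of 21 contrasts, each was adjusted by Benjamini-Hochberg over all genes tested, and a gene was called at an adjusted p under 0.05 and a fold of at least 1.5. The edgeR step was tested on simulated counts for the ventricular –dox comparison only. Changes were planted only in genes above a minimum mean count. The simulation therefore does not cover the 5 members with a ventricular median under 10 counts. All 10 members were named, and from the other lists mainly genes that were called, though not every one. Members and lists were chosen with earlier results of these data known. Alternatives were DESeq2 1.42.0, its size factors, no filter, no fold threshold, blocks for the replicate number or the library series, and each library left out. Totals ran from 55.03 to 97.09 M counts, and replicates differed by 10.3 to 140.9 times the counting noise (chi-square over degrees of freedom), so none was a duplicate. Limits given for counts of 0 (3 counts) cover counting error only. Likeness was Pearson's r of log2 CPM (prior count 2) within a chamber. Gene positions, overlaps and shared 75-base words came from GRCm38 annotation, and promoters from RefSeq.

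Same-numbered libraries of the 2 chambers of a cohort deviated from their group means together (median r = 0.132 over 18 pairs, 0.041 to 0.257, and 11 pairs over 0.1), against a median of -0.080 over 36 pairs with other numbers. Single values of some marker genes are not reported here.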

Additional observations from a re-analysis of the deposited data

Results flagged for a closer look

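The change between –dox and +dox differed between the chambers, by the interaction of cohort and chamber in edgeR, for Pln, the inhibitor of the SERCA pumps. Its log2 fold change was higher in atria than in ventricle by 0.88 (SE 0.15, adjusted p = 0.00183) for –dox and by 0.65 (SE 0.15, adjusted p = 0.0390) for +/–dox. Pln measured 745, 778 and 825 TPM in the +dox atria and 1217, 1305 and 1582 TPM in –dox, without overlap, whereas the ventricles gave 3528, 3168 and 4056 TPM in +dox and 3377, 3403 and 3727 TPM in –dox, which overlapped. Smpx, a small protein of the muscle cytoskeleton from the list of other sarcomere genes, differed by 0.63 (SE 0.15, adjusted p = 0.0299) for –dox. It measured 431, 395 and 546 TPM in the +dox ventricles and 288, 337 and 311 TPM in –dox, without overlap, against 827, 721 and 945 TPM and 894, 862 and 906 TPM in atria, which overlapped. None of the 9 tested members was flagged.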

How the results depend on the processing

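With the replicate number as a block, counts of members called were 2 in ventricle and 3 in atria for –dox, 1 and 2 for +/–dox and 7 between chambers, and no member count changed. With the block set within cohorts the count was 7 between chambers, 1 rather than 0 for the –dox interaction (Actn3) and 0 for the +/–dox interaction, the interactions having been added after seeing the data. Both chambers came from the same animals, but the labels do not tie numbers to animals and not every same-numbered pair had r over 0.1, so the block was kept as an alternative. As a hint from the data, 33 of 36 libraries resembled most the library of their own number in the other chamber. Between cohorts of 1 chamber the median r was 0.033, with 25 of 90 pairs over 0.1.

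DESeq2 called 2 members rather than 1 in the +/–dox ventricles, adding Ryr1 (log2 fold change -1.14, adjusted p = 0.0399), 2 rather than 1 in the MBNL2 atria against +/–dox, and 1 rather than 0 (Actn3) for the –dox interaction. The library series as a block gave 2 rather than 1 in the MBNL2 atria and 1 rather than 0 (Tnni2) in the MBNL1+MBNL2 atria, both against +/–dox. Without the filter the MBNL1+MBNL2 atria had 0 rather than 1 against +dox. With 1 library left out, counts ran from 1 to 3 for –dox and stayed at 1 for +/–dox in ventricle, and from 2 to 3 and 1 to 2 in atria. They ran from 0 to 1 for ventricular MBNL1 against +/–dox, from 0 to 1 for atrial MBNL1+MBNL2 against +dox and atrial MBNL1 against +/–dox, and from 0 to 2 for atrial MBNL2 against +/–dox. Between chambers they ran from 7 to 9, with 9 only without ventricle MBNL1 replicate 1. Causes were not tested. Of the log2 fold changes of members called in the report, refitted under alternatives, 397 kept direction and side of the threshold, 29 kept only direction and 0 reversed. This total is weighted to the 7 calls between chambers, which were refitted without each of 36 libraries and were never lost. All 29 losses were calls between cohorts, which had 6 such fits each. Casq1 in ventricle, not called, did turn with the +dox library left out. Depth limits Myh4, Tnnc2 in atria and Actn3, Pvalb, Tnni2 and Tnnt3 in ventricle.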

Other observations

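Regulators linked to the fast fibre programme were read from a list of 18, all tested. For –dox 1 was called in ventricle, Tead4, a factor that binds M-CAT motifs (log2 fold change 0.75), and 0 in atria. For +/–dox 1 was called in ventricle, Tbx15 (-1.58), and 0 in atria, and Hdac9 was lower in the MBNL2 ventricles (-0.62). Over all genes 7.6% and 5.23% were called for –dox in ventricle and atria, and 6.6% and 3.99% for +/–dox. Between chambers 5 of 18 were called, 3 lower and 2 higher in atria, beside 31.7% of all genes. Among those lower were Vgll2, a cofactor of TEAD factors (log2 fold change -4.26), and Tbx15 (-1.57). Eya1 (1.44) and Eya4 (1.23) were higher there.

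Of 12 genes of fast glycolytic metabolism 11 were tested. Phkg1, the catalytic subunit of muscle phosphorylase kinase, was the 1 called in ventricle, for –dox (log2 fold change 0.76) and for +/–dox (0.85), and Gpd1 (-0.63) the 1 called in the –dox atria. The list medians were 0.16 and 0.27 in ventricle (0.01 and 0.001 over all genes).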
